A study of Nicotiana plumbaginifolia and Nicotiana benthamiana and Nicotiana rustica with 81 samples.

Results

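The 47 transcripts described here are the gibberellin and GAST1-like genes of a table of 38230 reference transcripts of Nicotiana tabacum. They are the entries whose description names gibberellin, GAST1, snakin, DELLA, ent-kaurene or ent-copalyl, so no measured value chose them. By role they are 2 early synthesis enzymes, 2 gibberellin 20-oxidases, 1 gibberellin 3-oxidase, 11 gibberellin 2-oxidases, 8 GID1 receptors, 6 DELLA proteins, 16 GAST1-like or snakin peptides, and 1 chitin-inducible gibberellin-responsive protein. An Arabidopsis match was given for 44 of them, over 23 loci.

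Gibberellins are diterpene hormones. Ent-copalyl diphosphate synthase and ent-kaurene oxidase act in the early steps, 20-oxidases and 3-oxidases make the active forms, and 2-oxidases inactivate them. The hormone binds the soluble receptor GID1, which then captures DELLA proteins, repressors of growth, for destruction. GAST1, first known from tomato as a gibberellin-induced transcript, and the snakins, antimicrobial peptides of potato, belong to a family of small cysteine-rich peptides, of which some are induced and others repressed by the hormone.

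RNA came from hand-dissected floral nectaries, the glands that secrete nectar, of N. benthamiana, N. rustica, N. glauca, N. plumbaginifolia, N. bonariensis and N. clevelandii. Each species was sampled at floral stage 6 (immature), stage 9 (before secretion), stage 12 (anthesis) and after secretion (post secretory, also called post-fertilization in the protocol). Leaf, ovary and sepal of N. plumbaginifolia complete 27 groups of 3 libraries, 81 in all, with no treatment or mutant named in the labels. The protocol names stems where the sample labels give sepal, and counts 3 control libraries where the labels list 3 per tissue. Separate plants are not stated for the 3 libraries, so their SD may be technical.

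The N. clevelandii columns equalled the N. bonariensis columns in every mean, SD and call. The table does not tell which of the 2 species was measured there, so these values were counted once, as the joint profile, which left 5 profiles and 20 nectary means. Levels are the authors' mean normalized counts per group, given as mean ± SD (n = 3). They are not scaled for transcript length, so levels are compared between groups and not between genes. Values per library are not in the table, and the depth is unknown.

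Nectary markers were high up to anthesis and low afterwards: 15 marker transcripts summed to 12236 to 98602 at stages 6 to 12 and to 115 to 7268 post secretory, against 138 in leaf, 2781 in ovary and 1347 in sepal. Green tissue markers, 36 transcripts, summed to 1695 to 14521 at stage 12 and 17411 to 44537 post secretory. Ovule markers, 10 transcripts, ranged from 91 to 2680 in the nectary groups, with 3243 in ovary, 1041 in leaf and 1015 in sepal. Among them STK was above 0 in all 20 nectary groups, at 91 to 2521, with 2835 in ovary. BEL1 was at 0 in 4 of 20 nectary groups. INO, an ovule-defining marker that measured only 35 in ovary, was at 0 in 16. Carpel markers ranged from 2078 to 9890 and phloem markers from 271 to 2595 in the nectary. The widest spread between libraries, as the median SD over mean, was in the joint post secretory group (0.302), the N. rustica post secretory group (0.254), N. glauca stage 12 (0.217) and the leaf (0.353).

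Stage effects shared by the profiles were tested with limma on log2 of the mean plus 1, with the profiles as replicates (n = 5) and Benjamini-Hochberg adjustment over 36627 transcripts. Of the 47 transcripts, 45 averaged 10 or more over the nectary means and were tested. The others were snakin-2 XM_016626824.1, at 0 in every nectary group, and the GID1B-like variant XM_016621904.1, which was found at 5 to 37 in N. benthamiana nectaries, at 135 ± 101 in leaf and nowhere else. Between stages 6 and 12, 1 of 45 was called, a GID1 receptor that rose, where 0.838% of all transcripts were called (0.478% higher, 0.36% lower). Between stage 12 and the post secretory stage 1 was called, a GAST1-like transcript that rose, where 0.786% of all were called (0.232% higher, 0.554% lower). No transcript of the table passed between stages 6 and 9 or between stages 9 and 12 (0.0% called in each). At an unadjusted p under 0.05 stood 6 of 45 members from stage 6 to 9 (13.3%, against 8.16% of all transcripts) and 2 from stage 9 to 12 (4.44%, against 4.85%). From stage 6 to 12 the number was 15 (33.3%, against 16.8%), and from stage 12 to post secretory it was 11 (24.4%, against 16.3%). The median log2 change of the tested members from stage 6 to 12 was 0.34, beside 0.08 over all transcripts, and from stage 12 to post secretory it was -0.23, beside -0.04.

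**Figure D1:**
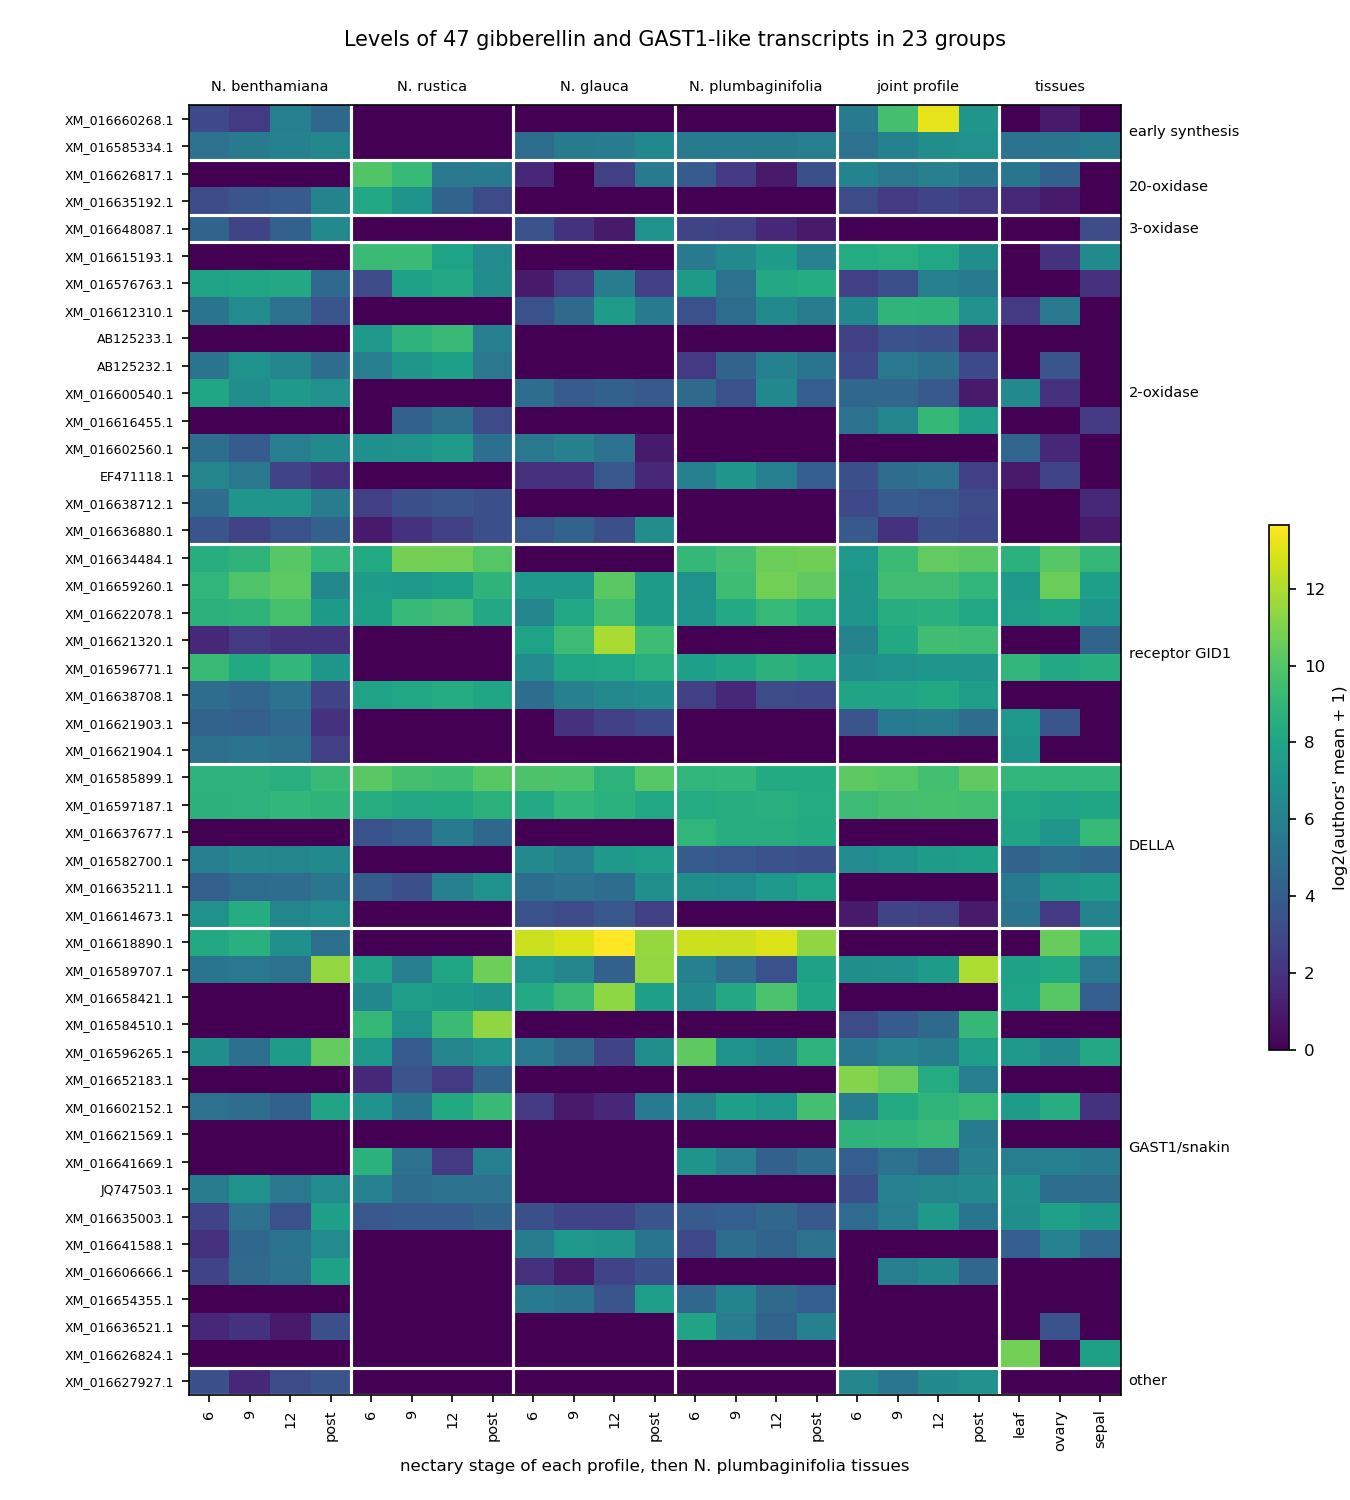
Level of each of the 47 transcripts (rows, by role) in the 20 nectary means and 3 tissues (columns), as log2 of the authors' mean plus 1 on a color scale. Dark cells are at or near 0: N. rustica lists 20 of the 47 at 0 at all 4 stages and the joint profile 11.

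Because the reads of related species were assigned to N. tabacum transcripts, near-identical copies can share reads, and a copy listed at 0 in a profile may have its reads at another. The same test was therefore also run on sums over all transcripts of each Arabidopsis locus, a choice made after the values per transcript were seen. Of 12367 loci tested, 11.0% were called from stage 6 to 12 (5.64% higher, 5.39% lower), and 5 of the 23 loci of the gibberellin and GAST1-like transcripts rose while 0 fell. Of these 5, AT4G09610 rose through a transcript that is not among the 47, its member being at 0 in every nectary group. From stage 12 to post secretory 11.4% were called (4.84% higher, 6.56% lower), and of the 23 loci 2 rose and 2 fell. Among these, AT2G14900 fell in N. rustica through a transcript that is not among the 47, its members being at 0 there. In 18 of the 23 loci all transcripts belong to the 47. From stage 6 to 9, 0 of 12367 loci were called (0.0%), 6 of the 23 and 1811 of all loci having an unadjusted p under 0.05. From stage 9 to 12, 2 of all loci were called (0.0162%), none among the 23, of which 4 had an unadjusted p under 0.05.

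Each of the 5 transcripts of hormone synthesis was at 0 at all stages in 1 to 3 of the 5 profiles, and none passed the limma test. Ent-copalyl diphosphate synthase XM_016660268.1 (AT4G02780), the enzyme of the first committed step, measured 47 ± 14, 790 ± 109, 8954 ± 2143 and 140 ± 53 in the joint profile at stages 6, 9, 12 and post secretory. In N. benthamiana it measured 7 ± 2, 4 ± 1, 58 ± 4 and 23 ± 7. It was listed at 0 in every nectary group of the other 3 profiles, and it measured 0 in leaf, 1 ± 2 in ovary and 0 in sepal. The stage 12 means thus stood above those of all other stages in both profiles where it was found, and the estimate over 5 profiles was 2.09 ± 0.89 (log2 change ± SE, stage 12 against 6, limma adjusted p = 0.26).

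Ent-kaurene oxidase XM_016585334.1 (AT5G25900), which works further along the same route, was low in 4 profiles and at 0 in N. rustica. At stage 6 it measured 34 ± 14 (N. benthamiana), 27 ± 5 (N. glauca), 47 ± 11 (N. plumbaginifolia) and 34 ± 4 (joint profile). Post secretory the means were 78 ± 5, 82 ± 19, 57 ± 9 and 118 ± 50 in that order. The mean was higher at stage 12 than at stage 6 in each of the 4, with a log2 change of 0.69 ± 0.23 (limma adjusted p = 0.16). Leaf (36 ± 7), ovary (38 ± 9) and sepal (46 ± 9) lay below the nectary means of N. plumbaginifolia, of which 47 ± 11 was the lowest. The gap to sepal was far smaller than the SDs.

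The 20-oxidases, which carry out the steps before the active hormone, had their highest levels in N. rustica. XM_016626817.1 (AT4G25420) measured 995 ± 51 there at stage 6, 566 ± 30 at stage 9, 44 ± 4 at stage 12 and 49 ± 16 post secretory. XM_016635192.1, of the same locus, measured 287 ± 8, 133 ± 15, 20 ± 7 and 8 ± 3 in N. rustica at the same stages. In this species both means were far lower at stage 12 than at stage 9, by more than their SDs, and the authors' deposited table calls the decrease of XM_016626817.1 from stage 6 to 12 in 1 profile. Elsewhere XM_016626817.1 was between 38 and 70 in the joint profile, at most 14 in N. plumbaginifolia, at most 47 in N. glauca and 0 in N. benthamiana. In N. benthamiana XM_016635192.1 measured 8 ± 3 at stage 6 and 71 ± 16 post secretory, the opposite order to N. rustica. Another transcript of the locus, AB016084.1, which is not among the 47 and was named after its values were seen, measured 256 ± 8, 46 ± 19, 4 ± 3 and 10 ± 3 in N. plumbaginifolia and 90 ± 10, 18 ± 4, 5 ± 5 and 3 ± 4 in the joint profile, and was at 0 in the other 3. In these too the mean was far lower at stage 12 than at stage 6, and its change was -1.92 ± 0.73 (limma adjusted p = 0.21). Summed over its 3 transcripts the locus was lower at stage 12 than at stage 6 in 3 profiles and higher in 2, by low sums of 8 to 14 and 2 to 5 (limma over all loci, -1.86 ± 1.12, adjusted p = 0.29). Over 5 profiles the log2 changes of the 2 members from stage 6 to 12 were -1.32 ± 0.96 (limma adjusted p = 0.50) and -0.68 ± 0.76 (adjusted p = 0.67), and the difference between profiles was not tested.

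The 3-oxidase XM_016648087.1 (AT1G15550), which makes the bioactive form, was low until anthesis and highest post secretory in 2 profiles. It measured 18 ± 1 at stage 12 and 90 ± 22 post secretory in N. benthamiana, and 1 ± 2 and 128 ± 4 in N. glauca. In N. plumbaginifolia it never exceeded 6 ± 1, and it was listed at 0 in N. rustica and the joint profile. The authors' deposited table calls it higher post secretory in 2 profiles, while the limma estimate was 1.54 ± 0.79 (adjusted p = 0.35).

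The 2-oxidases inactivate gibberellins, and 2 of their 4 loci passed the test for a rise from stage 6 to anthesis. Both estimates were negative afterwards, and 1 of these falls passed. The 5 transcripts of AT1G78440 summed to 176 (N. benthamiana), 220 (N. rustica), 13 (N. glauca), 78 (N. plumbaginifolia) and 110 (joint profile) at stage 6. At stage 9 the sums were 401, 632, 28, 186 and 589, and at stage 12 they were 257, 825, 190, 212 and 557. Post secretory they were 97, 109, 52, 109 and 138. In all 5 profiles the sum was higher at stages 9 and 12 than at stage 6, and lower post secretory than at stage 12. The locus rose from stage 6 to 12 by 2.00 ± 0.45 (log2, limma over all loci, adjusted p = 0.016, higher in 5 of 5 profiles) and fell by 1.82 ± 0.45 afterwards (adjusted p = 0.022, lower in 5 of 5). The rise missed the threshold without N. rustica (adjusted p = 0.06) and without the joint profile (0.072), and the fall missed it without N. benthamiana, N. rustica or the joint profile (0.069 to 0.11). Without the 3 nectary groups of widest spread the later change was -0.88 (adjusted p = 0.40), and without those high in ovule markers it was -2.41, past the threshold.

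Within that locus the copies differed by profile. GA2ox2, AB125233.1, measured 158 ± 6, 472 ± 27, 608 ± 49 and 58 ± 9 over the 4 stages in N. rustica and at most 10 ± 1 in the joint profile, and it was listed at 0 in the other 3. XM_016612310.1 measured 82 ± 14, 492 ± 35, 470 ± 31 and 117 ± 46 in the joint profile, measured 10 ± 2 at stage 6 and 178 ± 137 at stage 12 in N. glauca, and was at 0 in N. rustica. None of the 5 copies passed by itself, the nearest at stage 12 against 6 being GA2ox1, AB125232.1, at 1.72 ± 0.50 (limma adjusted p = 0.11, higher in 4 and lower in 0 profiles).

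A second 2-oxidase locus, AT1G02400, also rose from stage 6 to 12, by 3.03 ± 0.91 (limma over all loci, adjusted p = 0.045, higher in 5 of 5 profiles). Its main copy XM_016576763.1 measured 234 ± 11 (N. benthamiana), 8 ± 4 (N. rustica), 1 (N. glauca), 172 ± 6 (N. plumbaginifolia) and 5 (joint profile) at stage 6. At stage 12 it measured 305 ± 48, 305 ± 23, 53 ± 14, 303 ± 17 and 58 ± 15. The profiles therefore started far apart and 3 of them reached about the same level at anthesis, while the copy itself did not pass (2.87 ± 0.93, adjusted p = 0.15). The call on the locus was lost with a pseudocount of 10 and without N. rustica, N. glauca or the joint profile (adjusted p = 0.061 to 0.20), the change being 2.32 with the pseudocount of 10 and 3.69 without N. benthamiana, as well as without the groups of widest spread or high ovule markers (0.13 and 0.11). Post secretory the copy measured 24 ± 4 in N. benthamiana but 355 ± 10 in N. plumbaginifolia. It was lower than at stage 12 in 4 profiles and higher only in N. plumbaginifolia (-1.67 ± 0.93, limma adjusted p = 0.39). The authors' deposited table calls it lower in 2 profiles. The locus as a sum changed by -1.88 ± 0.91 over this step (limma over all loci, adjusted p = 0.18, lower in 4 profiles and higher in 1). Its other copy XM_016616455.1, named after its values were seen, measured 33, 77, 548 ± 111 and 200 ± 138 in the joint profile.

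XM_016615193.1, a 2-oxidase with AT3G11150 as its match, went against this order in N. rustica, with 638 ± 38, 640 ± 1, 244 ± 19 and 95 ± 18. It measured 51 ± 12, 87 ± 16, 178 ± 27 and 65 ± 10 in N. plumbaginifolia, and 337 ± 17, 375 ± 22, 290 ± 26 and 105 ± 26 in the joint profile. Its post secretory mean was the lowest or next to lowest of the 4 stages in the 3 profiles where it was found. The median log2 change of the 11 2-oxidases was 0.53 from stage 6 to 12 and -1.19 from stage 12 to post secretory, and 0 of 11 passed in either comparison by transcript.

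**Figure D2:**
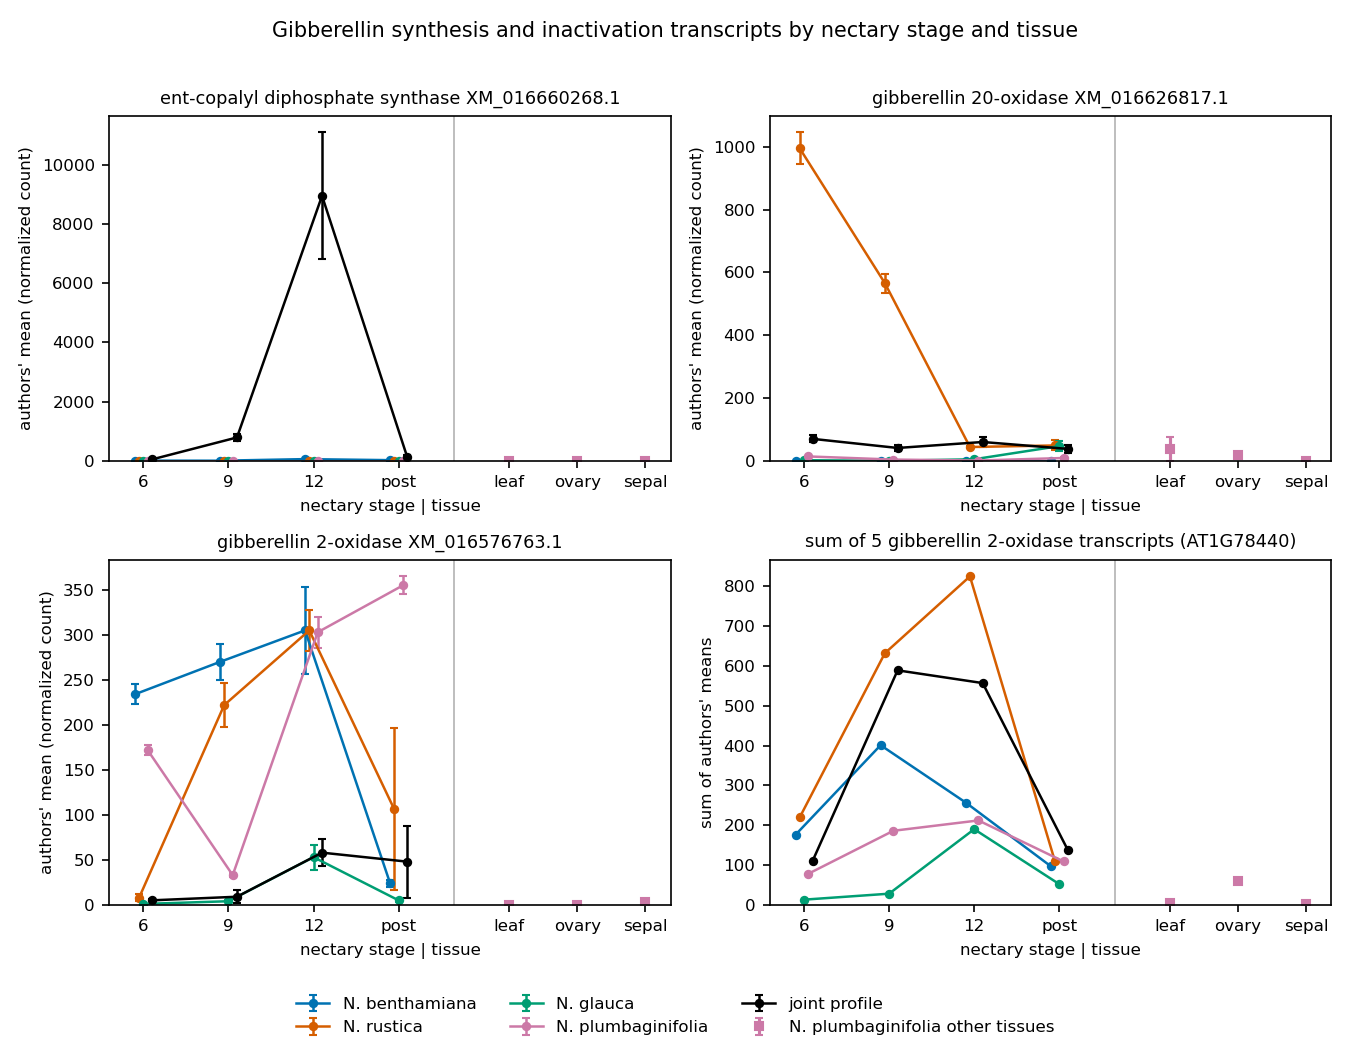
Levels by nectary stage (lines, 5 profiles) and in leaf, ovary and sepal of N. plumbaginifolia (squares) for ent-copalyl diphosphate synthase, a 20-oxidase and a 2-oxidase, and the sum of the 5 transcripts of AT1G78440. Points are the authors' means and whiskers their SD over 3 libraries, cut at 0, and the sum has no whiskers; the synthase peaks at 8954 in the joint profile and the 20-oxidase starts at 995 in N. rustica.

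Among the GID1 receptors, which bind the hormone, the GID1B-like locus rose toward anthesis as a sum. Of its 6 transcripts 1 passed by itself and 1, the variant XM_016621904.1, was too low to be tested. The sum of the 6 GID1B-like transcripts (AT3G63010) at stage 6 was 1357 (N. benthamiana), 727 (N. rustica), 488 (N. glauca), 823 (N. plumbaginifolia) and 527 (joint profile). At stage 12 it was 3165, 2675, 5768, 3805 and 3200 in that order. It was higher at stage 9 than at stage 6 and higher at stage 12 than at stage 9 in all 5 profiles. The locus rose by 2.29 ± 0.38 from stage 6 to 12 (log2, limma over all loci, adjusted p = 0.0044, 95% interval 1.49 to 3.10), and it passed under all 9 alternatives run on the sums, with adjusted p between 0.0046 and 0.033. Post secretory the sums were 785, 1827, 1050, 3319 and 2620, lower than at stage 12 in 5 of 5 profiles, a change of -1.10 ± 0.38 that did not pass (adjusted p = 0.071).

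Among single copies, GID1B-like XM_016622078.1 was the member called. At stage 6 it measured 431 ± 35 (N. benthamiana), 220 ± 22 (N. rustica), 77 ± 10 (N. glauca), 146 ± 12 (N. plumbaginifolia) and 146 ± 10 (joint profile). At stage 12 it measured 825 ± 17, 718 ± 33, 743 ± 27, 562 ± 80 and 408 ± 42. Every profile was higher at stage 12, by more than the SD of either stage, although the stage 6 mean of N. benthamiana was above the stage 12 mean of the joint profile. The log2 change was 1.86 ± 0.32 (95% interval 1.18 to 2.55, limma adjusted p = 0.022), and the authors' deposited table calls it higher in 5 of 5 profiles. It missed the threshold in 6 of 12 alternatives, among them leaving out N. rustica, N. glauca, N. plumbaginifolia or the joint profile, with changes between 1.51 and 2.09 and adjusted p up to 0.14 over the 12.

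The stage 9 means of XM_016622078.1, 473 ± 9, 561 ± 13, 283 ± 19, 330 ± 38 and 367 ± 17, lay between those of stages 6 and 12 in each profile. Post secretory it measured 176 ± 18, 299 ± 127, 177 ± 41, 373 ± 29 and 276 ± 97, above its stage 6 mean in every profile but N. benthamiana. The log2 change from stage 12 was -1.34 ± 0.32 (limma adjusted p = 0.07, lower in 5 of 5), and the authors' deposited table calls it lower in 4 profiles. In the other tissues it measured 204 ± 58 in leaf, 267 ± 13 in ovary and 142 ± 25 in sepal, all below the stage 12 nectary of the same species.

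A further GID1B-like copy, XM_016634484.1, measured 365 ± 15 (N. benthamiana), 322 ± 49 (N. rustica), 548 ± 20 (N. plumbaginifolia) and 156 ± 5 (joint profile) at stage 6. At stage 12 the means were 1090 ± 104, 1750 ± 73, 1518 ± 70 and 1341 ± 33, and it was listed at 0 throughout N. glauca. The change of 1.72 ± 0.38 just missed the threshold (limma adjusted p = 0.052), and the authors' deposited table calls it higher in 4 profiles. In N. rustica it had reached its level by stage 9, at 1797 ± 91, whereas N. benthamiana stood at 468 ± 40.

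XM_016659260.1, also GID1B-like, was the least uniform of the 3 abundant copies. Its means at stages 6 and 12 were 129 ± 7 and 1725 ± 10 in N. plumbaginifolia and 165 ± 21 and 1163 ± 354 in N. glauca, but 185 ± 11 and 207 ± 19 in N. rustica. In N. benthamiana they were 507 ± 36 and 1191 ± 91, and in the joint profile 147 ± 17 and 700 ± 51. Post secretory it stood at 81 ± 25 in N. benthamiana, below all its earlier stages, and at 463 ± 103 in N. rustica, above them. The estimate of 2.04 ± 0.70 from stage 6 to 12 did not pass (limma adjusted p = 0.17), and the authors' deposited table calls it higher post secretory in 1 profile and lower in 2. In ovary it measured 1522 ± 472, within 1 SD of the anthesis nectary of the same species. XM_016621320.1, named after its values were seen, carried the peak of N. glauca, where it measured 246 ± 7, 664 ± 44, 3857 ± 915 and 688 ± 103, in a species where XM_016634484.1 was at 0.

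Neither GID1C-like transcript (AT3G05120) passed the limma test from stage 6 to 12 (adjusted p = 0.42 for both), while the authors' deposited table calls each of them higher in 2 profiles. XM_016596771.1 measured 591 ± 42, 315 ± 12, 534 ± 17 and 150 ± 26 over the 4 stages in N. benthamiana and 209 ± 21, 260 ± 16, 439 ± 45 and 333 ± 28 in N. plumbaginifolia, and the authors' deposited table calls it lower post secretory than at stage 12 in 2 profiles. XM_016638708.1 measured 236 ± 7, 295 ± 8, 351 ± 37 and 274 ± 45 in N. rustica and at most 8 ± 1 in N. plumbaginifolia. The locus changed by 0.69 ± 0.35 from stage 6 to 12 (limma over all loci, adjusted p = 0.20, 95% interval -0.05 to 1.44). The difference between the GID1B-like and GID1C-like loci was not tested.

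Summed ovule markers were higher at stage 12 than at stage 6 in N. benthamiana, N. rustica, N. plumbaginifolia and the joint profile, from 186 to 2493 in the last and from 364 to 373 in the first. In N. glauca they were 93 and 91. The GID1B-like sum was 2888 in ovary, which holds the ovules, 1076 in leaf and 928 in sepal. In a further fit, the 6 nectary groups were left out whose ovule markers were at least 5-fold above stage 6 of the same profile. Among the stage 12 groups only that of the joint profile was left out. N. plumbaginifolia stage 12 stayed in, with ovule markers 4.05-fold above its stage 6. For stage 12 against 6 the fit thus mainly drops the joint profile, and does not test the rise without ovule tissue. In that fit the GID1B-like locus passed (2.38 ± 0.48, limma over all loci, adjusted p = 0.03). XM_016622078.1 did not (2.05 ± 0.38, limma adjusted p = 0.11), its change being no smaller than the 1.86 of the fit reported. In that setting 6 of all transcripts were called, against 307. The part of ovule tissue in the rise was not tested. In bulk tissue, fewer cells of a type and less RNA per cell cannot be told apart.

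**Figure D3:**
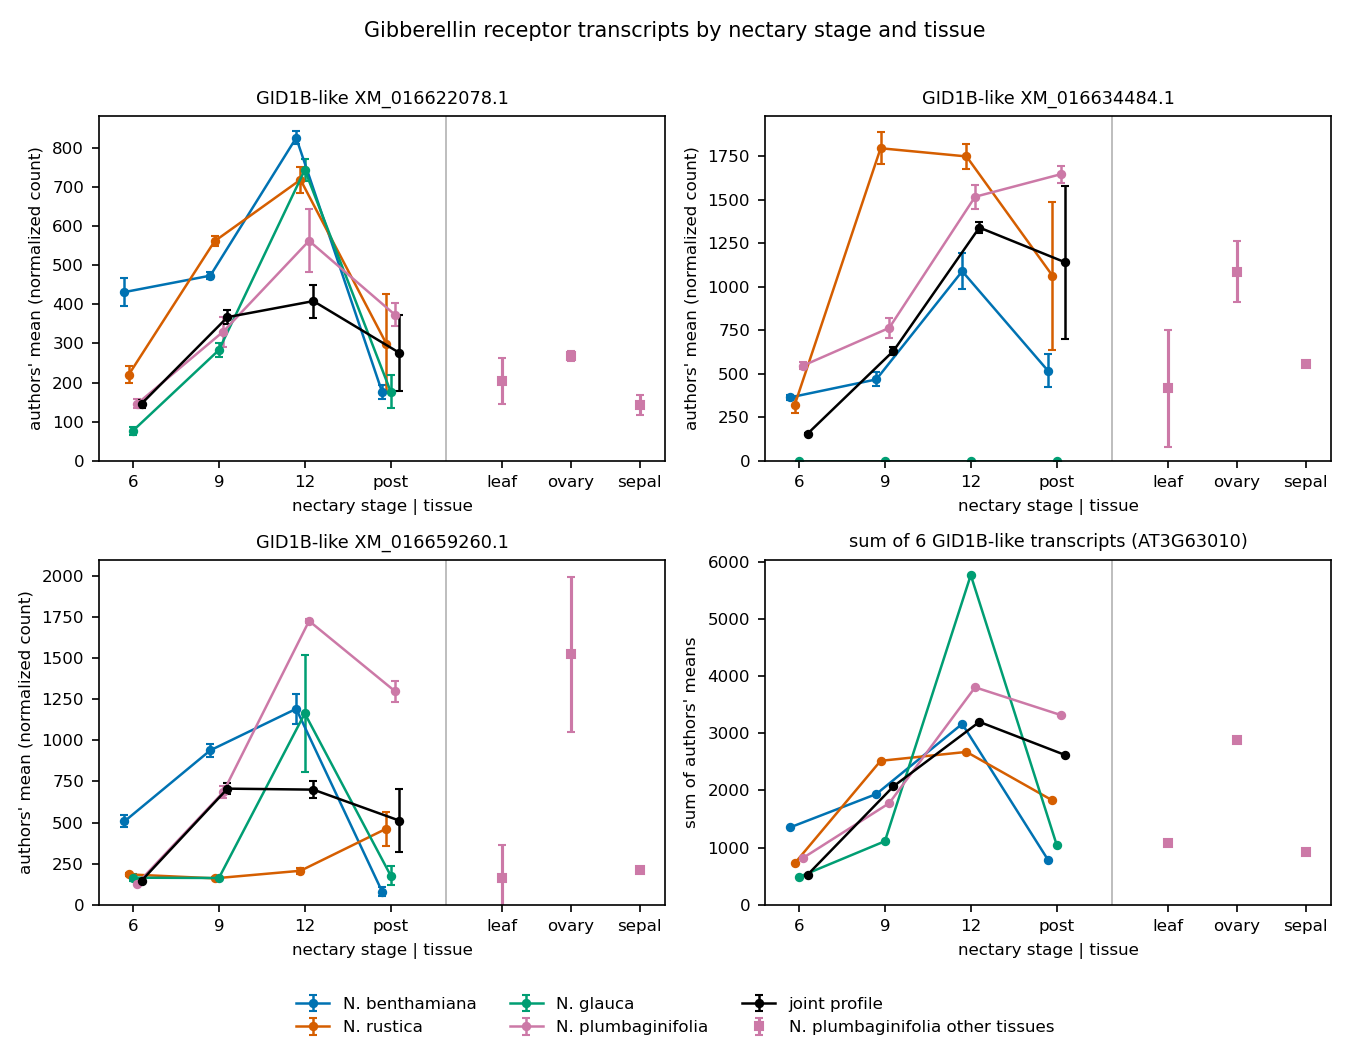
Levels of 3 GID1B-like receptor transcripts and of the sum of all 6 by nectary stage (lines, 5 profiles) and in leaf, ovary and sepal of N. plumbaginifolia (squares). Points are the authors' means and whiskers their SD over 3 libraries, cut at 0, and the sum has no whiskers; in all 5 profiles the sum climbs from stage 6 (488 to 1357) to stage 12 (2675 to 5768).

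The DELLA repressors stayed within a narrower range than the receptors. Summed over 6 transcripts they lay between 1077 and 2237 in all 20 nectary groups. The median log2 change over the 6 was 0.27 from stage 6 to 12 and 0.01 from stage 12 to post secretory, and 0 of 6 passed in any comparison.

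GAI1-like XM_016585899.1 (AT2G01570) was lower at anthesis than at stage 6 in every profile, without passing the test. Its stage 6 means were 460 ± 35 (N. benthamiana), 1142 ± 35 (N. rustica), 916 ± 11 (N. glauca), 511 ± 30 (N. plumbaginifolia) and 1173 ± 9 (joint profile). At stage 12 they were 378 ± 36, 693 ± 21, 453 ± 56, 331 ± 20 and 741 ± 56. The log2 change was -0.66 ± 0.17 (95% interval -1.02 to -0.30, limma adjusted p = 0.08, lower in 5 of 5), and the authors' deposited table calls it lower in 4 profiles. Post secretory it measured 590 ± 41, 1113 ± 254, 1059 ± 95, 326 ± 26 and 1293 ± 365, above stage 12 in 4 profiles and about equal in N. plumbaginifolia (change 0.67 ± 0.17, adjusted p = 0.088).

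The other GAI1-like copy, XM_016597187.1, was nearly level: its nectary means ran from 293 ± 24 to 817 ± 29, and its change from stage 6 to 12 was 0.19 ± 0.15 (95% interval -0.13 to 0.52). Summed over both copies, the locus changed by -0.31 ± 0.13 (limma over all loci, adjusted p = 0.13). GAI-like XM_016635211.1 (AT1G14920) was highest post secretory in each of the 4 profiles that list it, at 40 ± 8, 130 ± 54, 115 ± 9 and 244 ± 4, against 29 ± 4, 64 ± 10, 30 ± 4 and 155 ± 15 at stage 12 (change 0.80 ± 0.42, adjusted p = 0.37). As a locus AT1G14920 changed by 0.90 ± 0.36 from stage 6 to 12 (limma over all loci, adjusted p = 0.11, higher in 5 of 5). From stage 12 to post secretory it changed by 0.57 ± 0.36 (adjusted p = 0.32, higher in 5 of 5). RGL1-like XM_016614673.1 peaked at 352 ± 35 at stage 9 in N. benthamiana and did not exceed 12 ± 3 in any other profile's nectary.

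**Figure D4:**
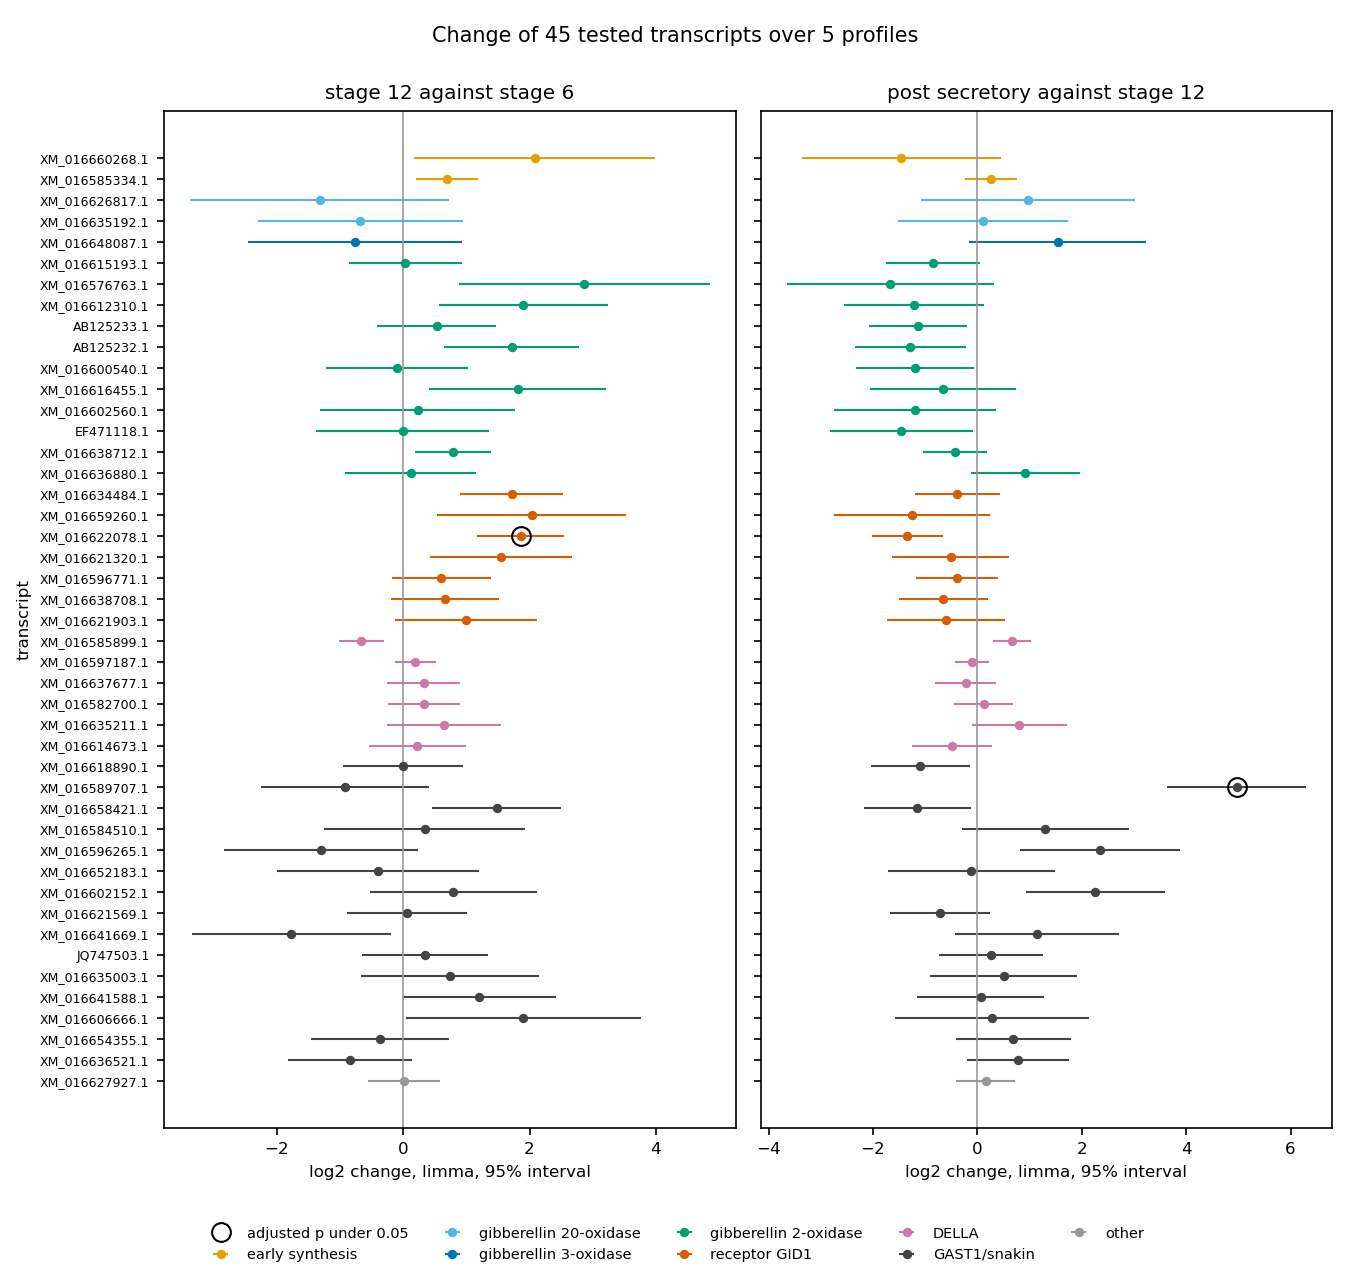
Log2 change of the 45 tested transcripts (rows, colored by role) from stage 6 to 12 (left) and from stage 12 to post secretory (right), with 95% intervals from limma over 5 profiles. Open rings mark the 2 transcripts past the threshold, at 1.86 on the left and 4.97 on the right; receptors and 2-oxidases lie mostly right of 0 in the left panel.

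After anthesis 2 loci of the GAST1-like and snakin peptides rose and 1 fell. GAST1-like XM_016589707.1 (AT1G74670) measured 35 ± 9 (N. benthamiana), 258 ± 4 (N. rustica), 18 ± 1 (N. glauca), 10 ± 3 (N. plumbaginifolia) and 188 ± 7 (joint profile) at stage 12. Post secretory it measured 2769 ± 177, 1588 ± 140, 2746 ± 703, 228 ± 11 and 3984 ± 563. All profiles were higher after secretion, N. plumbaginifolia reaching the lowest level, and it rose by 4.97 ± 0.62 (95% interval 3.64 to 6.30, limma adjusted p = 0.0029). In 12 alternatives the change stayed between 4.42 and 5.55, the highest without N. rustica, and passed in 7. With the groups of widest spread left out, or any profile but N. plumbaginifolia, it missed the threshold (adjusted p up to 0.12).

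Before anthesis the same transcript had no common course. From stage 6 to 12 its mean went from 64 ± 3 to 10 ± 3 in N. plumbaginifolia and from 129 ± 6 to 18 ± 1 in N. glauca, but from 111 ± 5 to 188 ± 7 in the joint profile. In the other tissues it measured 223 ± 358 in leaf, 314 ± 283 in ovary and 44 ± 5 in sepal. The SD of leaf and ovary is about as large as the mean, so their order against the post secretory nectary of this species (228 ± 11) could not be told.

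Gibberellin-regulated protein 6-like XM_016596265.1, of the same locus, was also higher post secretory than at stage 12 in all 5 profiles. It measured 1326 ± 209, 121 ± 92, 106 ± 9, 450 ± 32 and 199 ± 114 post secretory, against 183 ± 4, 73 ± 6, 6 ± 5, 82 ± 43 and 55 ± 11. The change of 2.36 ± 0.72 did not pass (limma adjusted p = 0.14), and its highest level in N. plumbaginifolia was at stage 6, at 1220 ± 41. The locus as a whole rose by 4.08 ± 0.73 (limma over all loci, adjusted p = 0.0056, higher in 5 of 5), and missed the threshold without N. glauca (3.39, adjusted p = 0.055) or the groups of widest spread (3.42, 0.15). Without the groups high in ovule markers it was 4.79 and passed.

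Another transcript of this kind, 6-like XM_016602152.1 (AT5G15230), named after its values were seen, measured 255 ± 38, 614 ± 177, 48 ± 13, 770 ± 58 and 567 ± 232 post secretory against 18 ± 4, 308 ± 34, 2 ± 4, 152 ± 71 and 490 ± 81 at stage 12. It is the only transcript of its locus, and its change of 2.26 ± 0.62 passed when adjusted over loci (adjusted p = 0.031) and not when adjusted over transcripts (0.11). Leaving out any single profile other than the joint one ended that call over loci, as did leaving out the groups of widest spread. GAST1-like XM_016584510.1, likewise named after its values were seen, measured 633 ± 24 and 2711 ± 535 at the same stages in N. rustica and 24 ± 11 and 538 ± 27 in the joint profile, and was listed at 0 elsewhere.

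The snakin-1 locus, of antimicrobial peptides by name, fell after anthesis as a sum. Snakin-1-like XM_016618890.1 (AT2G14900) measured 6071 ± 491, 7483 ± 104, 12912 ± 1146 and 2896 ± 257 over the 4 stages in N. glauca. In N. plumbaginifolia it measured 6255 ± 142, 6142 ± 153, 7712 ± 333 and 2700 ± 112, and in N. benthamiana 312 ± 2, 406 ± 32, 115 ± 14 and 32 ± 2. It was at 0 in N. rustica and the joint profile, where another transcript of the locus, antimicrobial peptide SN1a JQ031364.1, which is not among the 47, measured 33023 and 8301 at stage 12. Over the 4 transcripts of the locus, 2 of them not among the 47, the sum at stage 12 was 3341 (N. benthamiana), 33023 (N. rustica), 12914 (N. glauca), 7712 (N. plumbaginifolia) and 10856 (joint profile). Post secretory it was 2920, 1552, 2896, 2700 and 1550, and the locus fell by 2.22 ± 0.46 (limma over all loci, adjusted p = 0.011, lower in 5 of 5).

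The fall of AT2G14900 missed the threshold without N. glauca (adjusted p = 0.067) or the joint profile (0.073). The change was -1.08 when the 3 groups of widest spread were left out (adjusted p = 0.20). XM_016618890.1 alone changed by -1.10 ± 0.44 (adjusted p = 0.25, lower in 3 profiles and at 0 in the others). In the tissues it measured 0 in leaf, 1432 ± 145 in ovary and 424 ± 17 in sepal. Snakin-2-like XM_016652183.1, named after its values were seen, was a transcript of the immature nectary of the joint profile, at 2244 ± 120, 1531 ± 260, 341 ± 12 and 56 ± 48, and at most 19 ± 29 in N. rustica.

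The 4 members of locus AT4G09600 summed to 60, 148, 382, 109 and 9 at stage 6 and to 78, 211, 2648, 914 and 155 at stage 12, in the order N. benthamiana, N. rustica, N. glauca, N. plumbaginifolia and joint profile. The locus rose by 2.14 ± 0.55 (limma over all loci, adjusted p = 0.026, higher in 5 of 5), and the call was lost when any profile other than N. benthamiana was left out and without the groups of widest spread or high ovule markers. Its gibberellin-regulated protein 1-like copy XM_016658421.1, named after its values were seen, measured 2631 ± 614 in N. glauca at stage 12 and 1116 ± 364 in ovary.

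From stage 12 to post secretory, over the same transition, the N. rustica green tissue markers went from 13243 to 44537 and its nectary markers from 36900 to 712. In N. glauca the sums were 1695 and 32745 for green tissue, and 75813 and 115 for nectary. Both moved in these directions in all 5 profiles, and in leaf the green tissue markers summed to 383142. Their part in the changes of the GAST1-like, snakin and 2-oxidase transcripts was not tested.

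**Figure D5:**
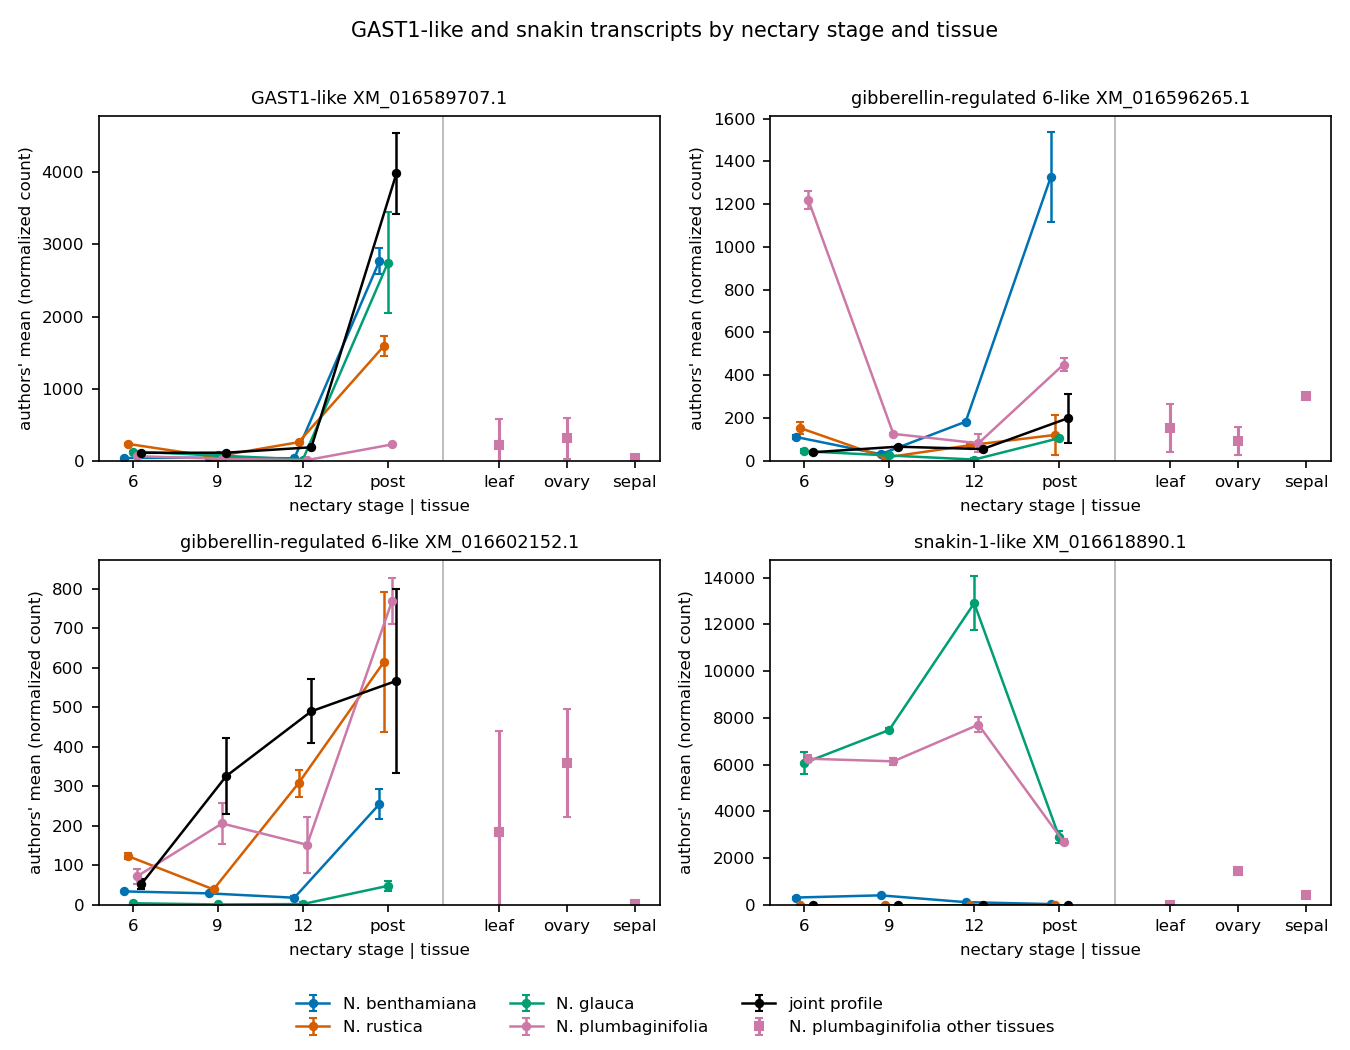
Levels of a GAST1-like, 2 gibberellin-regulated protein 6-like and a snakin-1-like transcript by nectary stage (lines, 5 profiles) and in leaf, ovary and sepal of N. plumbaginifolia (squares). Points are the authors' means and whiskers their SD over 3 libraries, cut at 0; the first 3 are higher post secretory than at stage 12 in all 5 profiles, and the snakin-1-like transcript is lower in the 3 profiles that list it.

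Genes of the pathway that the descriptions do not reveal were taken from a list of 23 Arabidopsis loci, of which 13 had transcripts, 34 in all and 32 tested. From stage 6 to 12, 2 of 32 rose and 0 fell, and in the other comparisons 0 passed. Cytochrome P450 714A1-like XM_016593612.1 (AT5G24910), whose Arabidopsis counterpart deactivates gibberellins, measured 22, 41, 18, 17 and 88 at stage 6 and 265, 706, 277, 24 and 882 at stage 12, in the same profile order. It rose by 3.05 ± 0.56 (limma adjusted p = 0.027, higher in 5 of 5, least in N. plumbaginifolia). Scarecrow-like protein 3, XM_016650348.1 (AT1G50420), a regulator that in Arabidopsis opposes DELLA, measured 39, 44, 9, 24 and 24 at stage 6 and 107, 131, 147, 189 and 142 at stage 12. It rose by 2.46 ± 0.43 (adjusted p = 0.025, higher in 5 of 5). F-box protein GID2-like XM_016598703.1, the counterpart of the protein that marks DELLA for destruction, changed by 0.32 ± 0.19 (adjusted p = 0.41, nectary means 213 to 1249).

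The most abundant transcripts of the other listed loci did not pass from stage 6 to 12. SPINDLY-like XM_016593235.1 (AT3G11540), whose counterpart modifies DELLA, changed by 0.25 ± 0.27, with means of 607 to 1063 in N. benthamiana, N. rustica and N. glauca and 3 to 10 in the joint profile. GAMYB-like XM_016629134.1 (AT3G11440), a transcription factor of the gibberellin response, changed by 0.77 ± 0.27 (limma adjusted p = 0.17, higher in 5 of 5). The GAMYB-like transcripts XM_016612548.1 (AT5G06100) and XM_016599515.1 (AT2G32460) changed by 0.50 ± 0.28 and 0.16 ± 0.21. Ent-kaurenoic acid oxidase XM_016616783.1 (AT2G32440), an enzyme of synthesis, measured 1450, 1710, 694 and 213 over the stages in N. rustica and at most 40 in any other nectary group, with a change of -0.49 ± 0.64. Cytochrome P450 714C2-like XM_016589849.1 changed by 0.49 ± 0.19, indeterminate-domain 2-like XM_016588923.1 by 0.38 ± 0.20 and NRT1/PTR family 3.1-like XM_016586918.1 by 0.60 ± 1.03. PIF3-like XM_016605744.1 changed by -0.12 ± 0.18 and the transcript matched to AT5G56860, XM_016633380.1, by -0.02 ± 0.11.

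By locus, 15 loci of the GAST1 and snakin family gave 21 transcripts, of which 6 are not among the 47, and 1 of these 6 passed. Antimicrobial peptide SN2a, JQ031366.1 (AT4G09610), measured 10, 1, 4, 8 and 1 at stage 6, 41, 47, 61, 178 and 251 at stage 12, and 187, 332, 120, 245 and 423 post secretory. It rose by 4.29 ± 0.66 from stage 6 to 12 (limma adjusted p = 0.015). The stage 6 means are near 0, so the size depends on the pseudocount: for the locus sum, which equals this transcript in the nectary, it was 2.80 with a pseudocount of 10, 3.62 without the joint profile and 4.88 without N. benthamiana, each past the threshold. Leaf measured 2245 ± 2411 and ovary 261 ± 34. Its locus is the fifth of those that rose, and the member of that locus, snakin-2 XM_016626824.1, was at 0 in every nectary group. Synthesis and signalling loci, 27 in number, added 6 transcripts that are not among the 47, of which 4 were tested and 0 passed, the ent-kaurene synthase counterpart XM_016618431.1 (AT1G79460) changing by 0.25 ± 0.21.

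Within single profiles, the authors' deposited table calls 9 of 47 members between stages 6 and 12 for N. benthamiana (19.6% of all transcripts called), 15 for N. rustica (24.5%), 10 for N. glauca (21.7%), 13 for N. plumbaginifolia (17.9%) and 15 for the joint profile (26.8%). More were called higher than lower in each, with 6, 9, 8, 9 and 13 higher, where 10.8%, 13.4%, 11.9%, 8.5% and 14.0% of all transcripts are called higher. Between stage 12 and post secretory the authors' deposited table calls 17 members for N. benthamiana (27.7%), 10 for N. rustica (12.1%), 12 for N. glauca (19.9%), 10 for N. plumbaginifolia (11.5%) and 9 for the joint profile (9.19%). Of these, 9, 4, 7, 4 and 2 were higher, where 13.0%, 5.47%, 9.34%, 6.08% and 3.6% of all are. The share of members called after stage 12 was 36.2%, 21.3%, 25.5%, 21.3% and 19.1%, above that of all transcripts in each profile, and between stages 6 and 12 it was above it in 3 profiles and about equal in N. benthamiana and N. glauca, without a test. Of the members that the authors' deposited table calls in 2 or more profiles, 4 of 17 went in opposite directions between stages 6 and 12, where 27.9% of all such transcripts did, and 2 of 16 between stage 12 and post secretory, where 23.4% did.

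Against the other tissues of N. plumbaginifolia, 26 of the 47 differed at least 2-fold between the anthesis nectary and leaf, 15 of them higher in the nectary, without a test. Over all transcripts 45.7% differed and 20.7% were higher. Against ovary 25 differed and 12 were higher (44.7% and 18.3% of all), and against sepal 29 differed and 16 were higher (50.2% and 20.9%). The 2-oxidases summed to 775 at stage 12, of which XM_016576763.1 (303) and XM_016615193.1 (178) made the most, beside 114 in leaf, 68 in ovary and 97 in sepal. Of the 11, 5 were highest in a nectary group, 2 in leaf, 3 in sepal and 1 was at 0 throughout. The 3 highest in sepal measured at most 4 there, near 0. The authors' deposited table calls 3 of 11 different from each of the 3 tissues. For these calls the share over all transcripts was not computed. Of all transcripts, 12.0%, 8.39%, 7.74% and 7.0% were highest in the nectary at stages 6, 9, 12 and post secretory. Leaf was highest for 18.4%, sepal for 23.7% and ovary for the rest. These shares were set beside the 34 members reaching 10, a limit not applied to the 11. Whether the 2-oxidases differ from these shares was not tested. The authors' deposited table calls 14 members different from leaf (9 higher in nectary), 13 from ovary (9 higher) and 15 from sepal (10 higher), where 21.6%, 34.4% and 39.9% of all transcripts are called (9.56%, 13.7% and 17.6% higher).

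At least 4-fold above every other tissue at all 4 nectary stages, like 4.59% of all transcripts, stood 2-oxidase XM_016576763.1, at 33 ± 2 to 355 ± 10 in the nectary and at most 3 in the tissues. Gibberellin-regulated protein 12-like XM_016654355.1 did too, at 16 ± 6 to 70 ± 21 in the nectary and 0 in the tissues. At stage 12 the authors' deposited table calls the 2-oxidase different from every other tissue and the 12-like transcript from none. The reverse, which held for 5.72% of all transcripts, was found for 9-like XM_016635003.1, with 112 ± 68 in leaf, 226 ± 6 in ovary and 151 ± 12 in sepal and at most 22 ± 3 in the nectary, for snakin-2-like JQ747503.1 (115 ± 68, 30 ± 4 and 27 ± 6, nectary 0) and for RGL1-like XM_016614673.1 (37 ± 22, 4 and 69 ± 6, nectary 0). Of these, the authors' calls at stage 12 set the 9-like transcript apart from every other tissue, JQ747503.1 from leaf alone and the RGL1-like from none. In the nectary of another species, 9-like XM_016635003.1 reached 210 ± 20 in N. benthamiana post secretory, and JQ747503.1 reached 130 ± 4 there at stage 9.

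Profiles differed in which members they list. N. benthamiana had 12 of 47 at 0 at all stages (25.5%, beside 27.0% of all transcripts), N. rustica 20 (42.6%, 33.1%), N. glauca 18 (38.3%, 29.5%), N. plumbaginifolia 18 (38.3%, 37.3%) and the joint profile 11 (23.4%, 18.9%). Of the 47, 10 were above 0 at some stage in all 5 profiles, a count for which the share over all transcripts was not computed. Another, snakin-2 XM_016626824.1, was at 0 in every nectary while leaf measured 1746 ± 1938 and sepal 219 ± 37. The remaining class, chitin-inducible gibberellin-responsive protein 1-like XM_016627927.1, measured 78 ± 11, 40 ± 11, 92 ± 8 and 120 ± 24 in the joint profile, at most 11 ± 3 in N. benthamiana and 0 in the other 3.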

How the data were processed

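The deposited table, made by the authors, holds the mean and SD of 3 libraries per group for 38230 transcripts, in the unit score: whole numbers that the column headers call normalized. The authors normalized with DESeq, per the submitters' processing notes, which name no version. The aligner, the genome build and the threshold of the calls are not given in the sources used. The 51 yes or no columns (unit other, 45 distinct) are calls of differential expression that the authors deposited. TruSeq libraries were sequenced as paired ends, per the labels' protocols.

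The members, gene lists and tests were chosen with earlier results of these data known. Members were found by their descriptions and given roles from them. Stage effects were fitted with limma 3.58.1 (R 4.3.3) on log2(mean + 1), with the profile blocked, empirical Bayes variances that follow a trend, and an adjusted p under 0.05, leaving 12 residual degrees of freedom. Transcripts needed a mean of 10 or more over 20 nectary means. The planned 6 species became 5 profiles because 2 were identical copies. The table holds no values per library, so the authors' SDs do not enter the test, and the p-values measure the spread between profiles. Pseudocount, filter, scaling, variance trend, both copies, each profile left out, groups of widest spread and groups high in ovule markers were varied. The last 2 and the sums per locus were chosen after seeing the data. Marker lists cover nectary, ovule, carpel, green tissue and phloem, matched by Arabidopsis locus. The fit was tested on simulated data. Figures were drawn with matplotlib 3.10.9.

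Named were, per role, the 2 members of highest nectary mean and the 2 of largest change in any stage comparison, all past the threshold, those 4-fold or more apart from the other tissues at every stage, and, of the pathway list, those past the threshold and the most abundant of each locus. Others are said to be named after their values were seen.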

Additional observations from a re-analysis of the deposited data

How the results depend on the processing

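No paired analysis was possible because the table holds group means and no values per library, so replicate numbers could not be used; the stages were compared within profiles. In every setting run, 0 members were called from stage 6 to 9 and from stage 9 to 12, although counting both copies of the joint profile called 111 and 2 of all transcripts where the fit reported called 0. From stage 6 to 12 the 1 member called became 10 with both copies counted (2272 of all transcripts, 307 in the fit reported), 0 to 1 when a profile was left out (4 to 62), 0 without the groups of widest spread (72) and 0 without those high in ovule markers (6). From stage 12 to post secretory 1 member became 4 with both copies (1966, from 288), 0 to 2 with a profile left out (0 to 691), and 0 without the groups of widest spread (4). Without the groups high in ovule markers 1 was called (458). Counting both copies enters identical values as separate profiles, and leaving out groups leaves fewer samples; otherwise the cause was not tested. On the sums per locus, the 5 loci called from stage 6 to 12 became 2 to 5 with a profile left out and 3 without either set of doubted groups. The 4 called afterwards became 1 to 4 with a profile left out and 0 without the groups of widest spread. A pseudocount of 10, no filter, another scaling and no variance trend kept the counts of members called. Counts of 2-fold differences from leaf (26), ovary (25) and sepal (29) ran from 23 to 26, 17 to 24 and 21 to 27. Over the values of named transcripts and loci, 11 were called in the fit reported, and 39 of their 105 alternatives lost the call while 66 kept it; 86 were not called, and 10 of their 1032 alternatives gained a call. Depth is unknown, so the counting precision of low means cannot be given.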
